A study of Mus musculus with 17 samples.

Results

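Caveolins, cavins and the ATPase Ehd2 build the small flask-shaped pits of the plasma membrane called caveolae. The 6 genes described here are Cav1, Cav2, Cavin1, Cavin2, Cavin3 and Ehd2, out of 55359 genes in a table of RNA sequencing counts from newborn mouse testes and forebrain. They were chosen by symbol, as the rows whose Ensembl identifier has one of these names in the GENCODE mouse annotation. The set was put together with measured differences between mutant and wild-type (WT) libraries already known. The values of mutant against WT libraries are therefore given as descriptions, and a count of members past the threshold of the fit over all genes is no evidence about them. Tests of the members were made for Ocn-/- against Ocn+/- pups and for testes against forebrain, which were not named in the choice. All 6 members passed the filter on low counts in both organs, where 16361 genes were tested in testes and 16076 in forebrain.

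Caveolin-1, the product of Cav1, inserts into the inner face of the membrane and forms the oligomers on which a caveola is built, and caveolin-2 joins those oligomers. Cavin-1 coats the caveola from the cytosolic side and is needed in all tissues for caveolae to form, while cavin-2 and cavin-3 join the coat and tune the shape and dynamics of the pit. Ehd2 sits at the neck of the caveola and holds it at the surface. Caveolae are abundant in endothelial cells, adipocytes, fibroblasts and smooth muscle, and sparse in the endothelium of the blood-brain barrier, where Mfsd2a limits caveola-based transport.

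The 17 libraries came from male pups at postnatal day 1 of the Ocn_GK strain, in which Osteocalcin, the gene of a hormone secreted by bone-forming cells, was inactivated by homologous recombination on a 129/SvEv background. WT pups were born to WT mothers, and both Ocn+/- (Het) and Ocn-/- (KO) pups were born to Ocn-/- mothers. Pup genotype, maternal genotype and litter thus change together between WT and mutant pups and cannot be told apart, whereas Ocn+/- and Ocn-/- pups share the genotype of the mother. Testes gave 2 WT, 3 Ocn+/- and 3 Ocn-/- libraries, and the forebrain gave 3 of each. The sample labels call the brain tissue hippocampus, and the study describes it as forebrain that includes the hippocampus. No source used here says which libraries share a pup, a litter or an extraction, so p-values measure the spread between these libraries, which may be partly technical.

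Cav1 lies on chromosome 6 from 17306140 to 17341451 on the plus strand of GRCm39, and Cav2 lies just before it on the same strand, from 17281026 to 17289877, so that 16262 bases separate the neighbours. Cavin1 is on chromosome 11 from 100847559 to 100861713 on the minus strand, and Cavin2 is on chromosome 1 from 51328266 to 51345710 on the plus strand. Cavin3 and Ehd2 are both on the minus strand of chromosome 7, from 105128391 to 105131507 and from 15680874 to 15701629. All 6 are protein-coding genes. Every one but Ehd2 overlaps a non-coding or unclassified transcript on the other strand. Of the 50-base words of the reference transcript, 8.66% for Cav1, 24.7% for Cavin1, 1.74% for Cavin2 and 14.5% for Cavin3 also occur in such an antisense transcript, and none do for Cav2 and Ehd2. The sources used here do not say whether counting used strand, so reads from those stretches cannot be assigned to one strand with certainty.

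The 250 bases before the annotated 5′ end are shown for Cav1, whose level was under WT in every mutant library of both organs, for its neighbour Cav2, which was lower in mutant testes but close to WT in forebrain, and for Cavin1, the coat protein that stayed close to WT in testes. The sequences are from the reference genome GRCm39, 5′ to 3′ on the strand of the gene, at chr6:17305890-17306139 for Cav1, chr6:17280776-17281025 for Cav2 and chr11:100861714-100861963 for Cavin1. Capitals mark 4 motifs on either strand. They are the GC box in the form GGGCGG, the usual letters of a promoter box near the start site in the form TATAAA, the box bound by nuclear factor Y in the form CCAAT and the core of a hypoxia response element in the form ACGTG. No marked motif overlaps another in these windows.
Cav1: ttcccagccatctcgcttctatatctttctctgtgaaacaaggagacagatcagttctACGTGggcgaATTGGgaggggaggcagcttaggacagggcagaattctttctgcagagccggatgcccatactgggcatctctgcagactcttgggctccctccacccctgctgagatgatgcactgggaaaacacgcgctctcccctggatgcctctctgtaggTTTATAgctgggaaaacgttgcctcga
Cav2: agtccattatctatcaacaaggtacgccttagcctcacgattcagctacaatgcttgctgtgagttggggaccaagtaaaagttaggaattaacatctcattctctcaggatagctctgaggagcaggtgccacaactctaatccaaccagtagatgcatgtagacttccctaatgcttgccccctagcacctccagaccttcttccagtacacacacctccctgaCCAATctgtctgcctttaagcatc
Cavin1: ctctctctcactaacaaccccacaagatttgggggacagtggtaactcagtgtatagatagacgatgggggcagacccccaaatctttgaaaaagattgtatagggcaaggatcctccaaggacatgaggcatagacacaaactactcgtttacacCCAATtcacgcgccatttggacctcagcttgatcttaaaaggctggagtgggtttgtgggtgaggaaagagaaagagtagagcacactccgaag
The Cav1 window holds 1 TATAAA on the opposite strand, 1 CCAAT on the opposite strand and 1 ACGTG. The Cav2 and Cavin1 windows hold 1 CCAAT each and none of the other 3 motifs. Among the windows of 21757 protein-coding genes, 12.5% held TATAAA, 36.1% held CCAAT, 16.4% held ACGTG and 29.9% held GGGCGG. Of the remaining members, Cavin2 had 1 CCAAT, Cavin3 had 2 GGGCGG and Ehd2 had 1 GGGCGG. These matches are letters in a window and say nothing about what binds there.

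Total expected counts were 7302401 to 8289015 per library in testes and 6518151 to 14621584 in forebrain, and the members held 95 to 2748 counts per library in testes and 27 to 886 in forebrain. The third forebrain WT library (WT 3) had the smallest total and stood apart from the other WT libraries of that organ, with a chi-square per gene of 69.9 and 90.8 against them, where the other pairs within a group lay between 3.57 and 13.2. Results that rest on WT 3 are given with and without it. The Osteocalcin gene Bglap had 0 to 2 counts in testes and 0 to 5 in forebrain, too few to check a genotype label. The Sertoli, Leydig and germ cell genes Amh, Cyp17a1 and Ddx4 had at least 2600, 289 and 515 counts in every testis library, and the neuronal genes Tubb3 and Stmn2 at least 9829 and 7702 in every forebrain library.

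The members differed widely in level, and over all genotypes 5 of the 6 were higher in testes than in forebrain. Levels between genes are compared in TPM, in which counts are divided by transcript length and scaled to the same sum in each library. Over the libraries of all genotypes, Cavin1 had the highest median in testes at 224 TPM (lowest 206, highest 249, n = 8), followed by Cav1 at 168 TPM (101 to 267). The ranges of Cavin1 and Cav1 overlapped, and their order depended on genotype, since in the WT testes Cav1 was above Cavin1 (242 and 267 against 215 and 224 TPM). Ehd2 had a median of 74.2 TPM (54.9 to 87.6) and Cavin3 of 40.0 TPM (25.5 to 56.3), so that their ranges touched. Cavin2 had a median of 26.1 TPM (17.3 to 29.1) and Cav2 of 15.2 TPM (12.4 to 27.1). Cavin2 overlapped both Cavin3 and Cav2, whereas no library of Ehd2 reached the level of Cav1.

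In forebrain Cav1 led in every genotype, with a median of 38.9 TPM (29.9 to 60.5, n = 9), above every value of every other member. Cavin1 had a median of 19.8 TPM (15.3 to 21.4) and Cav2 of 16.8 TPM (12.8 to 21.4), which overlapped. Cavin3 followed at 13.05 TPM (4.80 to 14.7), Ehd2 at 6.47 TPM (3.91 to 8.15) and Cavin2 at 3.97 TPM (3.22 to 5.13), each overlapping the next. The order of the medians in each organ was the same when the longest transcript was used as the length, although Cavin1 then had 264 TPM in testes and 23.5 TPM in forebrain.

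**Figure D1:**
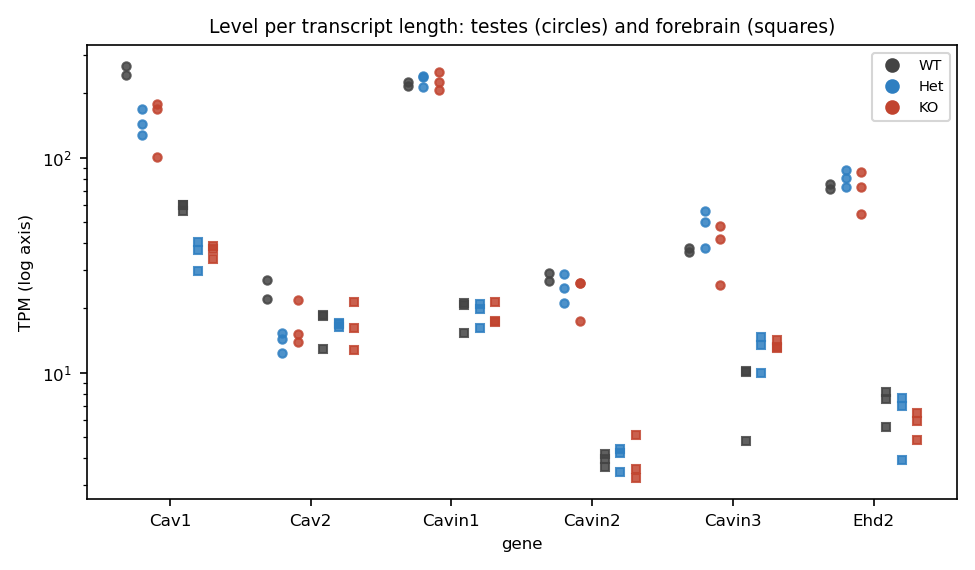
Levels of the 6 members in TPM on a log axis, 1 point per library, with testes as circles and forebrain as squares and WT, Het and KO in grey, blue and red. Over all genotypes, Cav2 has a median of 15.2 TPM in testes and 16.8 TPM in forebrain, whereas Cavin1 has 224 and 19.8 TPM.

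Organs were compared in a joint fit of all 17 libraries, in which 84.4% of the 17800 genes tested differed between organs at an adjusted p under 0.05, so that a difference was the common case. Cavin1 was higher in testes by 3.32 ± 0.07 on the log2 scale (± SE; edgeR quasi-likelihood, adjusted p = 1.9e-23) and Ehd2 by 3.30 ± 0.10 (adjusted p = 1.3e-19). Cavin2 was higher by 2.40 ± 0.11 (adjusted p = 3.8e-16), Cav1 by 1.78 ± 0.10 (adjusted p = 3.8e-12) and Cavin3 by 1.60 ± 0.12 (adjusted p = 5.5e-12). Cav2 did not pass the test, with a log2 difference of -0.15 ± 0.11 (adjusted p = 0.222). This value averages genotypes that were unlike each other, since Cav2 in WT was 22.0 to 27.1 TPM in testes and 12.8 to 18.5 TPM in forebrain, whereas in the mutants the organs overlapped or testes were lower. The WT libraries alone were not tested. The sign of the joint value turned to 0.17 when libraries were scaled by their total alone, where the median of all genes also moved from 0.09 to 0.40, and the other 5 stayed higher in testes under all 6 alternative settings and with each of the 17 libraries left out. The sizes of these differences were not tested against each other.

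Cav1 mRNA was lower in every mutant library than in every WT library of the same organ, in testes and in forebrain alike. Levels within an organ are given in CPM, which are counts scaled to library size, here after TMM normalization. In testes Cav1 had 316 and 347 CPM in the WT libraries, 151, 202 and 176 CPM in the Ocn+/- libraries and 189, 216 and 122 CPM in the Ocn-/- libraries. The highest mutant testis stayed under the lowest WT testis, and the mutant genotypes overlapped each other. Against WT, edgeR's log2 fold change (± SE) was -0.91 ± 0.20 for Ocn+/- and -0.92 ± 0.20 for Ocn-/-, or 1.88 and 1.89 times lower.

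In forebrain Cav1 had 67.6, 71.2 and 92.0 CPM in the WT libraries, 42.3, 34.9 and 46.2 CPM in Ocn+/- and 41.6, 36.6 and 42.2 CPM in Ocn-/-. The highest value belongs to WT 3, and the groups of mutants again did not reach any WT library. On the log2 scale the Ocn+/- libraries differed from WT by -0.89 ± 0.12 and the Ocn-/- libraries by -0.93 ± 0.12. Without WT 3 these were -0.75 and -0.79. In TPM, which uses no TMM scaling, WT 3 was no longer the highest, and the WT libraries had 60.3, 60.5 and 56.5 TPM against 29.9 to 40.7 TPM in the 6 mutant libraries.

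**Figure D2:**
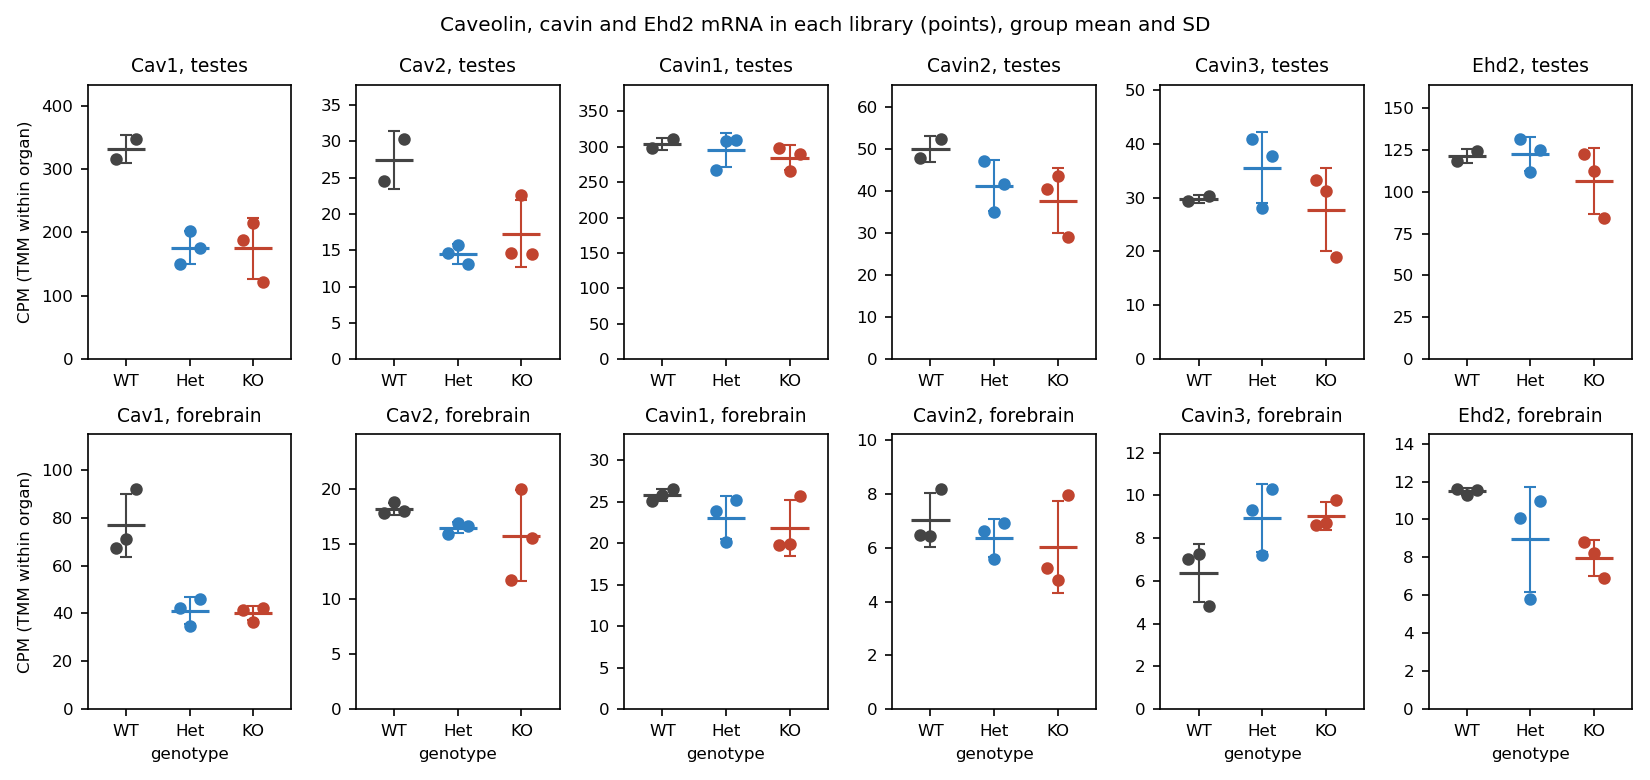
CPM of each member in every library (points) with the group mean (line) and SD (bar), testes above and forebrain below, each panel starting at 0 with its own scale. Cav1 separates WT from mutants in both organs (316 CPM or more against 216 or less in testes, and 67.6 or more against 46.2 or less in forebrain), and Cavin1 in testes stays between 266 and 311 CPM in all 8 libraries.

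Cav2, the partner of Cav1 in the caveolin oligomer, was lower in mutant testes but showed little difference in forebrain. In testes Cav2 had 24.6 and 30.3 CPM in WT, 14.6, 15.8 and 13.1 CPM in Ocn+/- and 14.7, 22.7 and 14.5 CPM in Ocn-/-. All mutant libraries were below the WT libraries, with the second Ocn-/- library closest to them, and in TPM it was only just below (21.80 against a lowest WT value of 21.96). The log2 difference from WT was -0.92 ± 0.22 for Ocn+/- pups and -0.67 ± 0.22 for Ocn-/- pups. In forebrain Cav2 had 17.8, 18.8 and 18.0 CPM in WT, 15.9, 16.9 and 16.6 CPM in Ocn+/- and 11.7, 19.96 and 15.6 CPM in Ocn-/-. The Ocn-/- libraries spanned the WT values, and the Ocn+/- libraries lay just under them, whereas in TPM they lay within the WT range. Here the log2 fold changes were -0.14 ± 0.16 and -0.20 ± 0.16. Relative to Cav1, Cav2 in TPM was 0.10 ± 0.01 (SD, n = 2) in WT testes and 0.10 ± 0.01 and 0.12 ± 0.02 in Ocn+/- and Ocn-/- testes (n = 3 each), whereas in forebrain the ratio was 0.28 ± 0.05 in WT, 0.47 ± 0.08 in Ocn+/- and 0.46 ± 0.16 in Ocn-/- (n = 3 each). WT 3 had 0.23 there, WT 1 and WT 2 had 0.31 each, and the lowest mutant library had 0.33.

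Cavin1, the essential coat protein, hardly differed between genotypes in testes and was slightly lower, with overlap, in mutant forebrain. In testes Cavin1 had 298 and 311 CPM in WT, 267, 308 and 310 CPM in Ocn+/- and 299, 266 and 290 CPM in Ocn-/-. Both mutant groups overlapped WT, with log2 fold changes of -0.04 ± 0.12 and -0.10 ± 0.12. In forebrain Cavin1 had 25.1, 25.8 and 26.5 CPM in WT, 23.9, 20.1 and 25.2 CPM in Ocn+/- and 19.8, 19.9 and 25.7 CPM in Ocn-/-. The highest library of each mutant group reached into the WT range, and the log2 fold changes were -0.15 ± 0.13 and -0.24 ± 0.13.

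Cavin2, a phosphatidylserine-binding coat protein, had slightly lower CPM in mutant testes. Cavin2 had 47.8 and 52.2 CPM in WT testes, 47.0, 35.0 and 41.7 CPM in Ocn+/- and 40.5, 43.6 and 28.9 CPM in Ocn-/-. All mutant values were under the WT values, only just for the first Ocn+/- library, and the log2 fold change was -0.28 ± 0.18 and -0.41 ± 0.18. In TPM the highest Ocn+/- library, at 28.9, lay above the lowest WT library, at 26.6, and the highest Ocn-/- library, at 26.1, just under it. In forebrain, with 46 to 106 counts per library, Cavin2 had 6.48, 6.45 and 8.18 CPM in WT, 6.63, 5.58 and 6.92 CPM in Ocn+/- and 5.27, 4.82 and 7.98 CPM in Ocn-/-. The 3 genotypes overlapped, with log2 fold changes of -0.12 ± 0.22 and -0.21 ± 0.22.

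Cavin3, a coat subunit that binds cavin-1 and caveolin-1, was the member whose forebrain values were higher in the mutants. In forebrain Cavin3 had 7.02, 7.26 and 4.80 CPM in WT, 9.33, 7.21 and 10.3 CPM in Ocn+/- and 8.63, 8.70 and 9.79 CPM in Ocn-/-. The lowest value is that of WT 3 and rests on 27 counts, all Ocn-/- libraries exceeded all WT libraries, and 1 Ocn+/- library overlapped them. Compared with WT, Ocn+/- libraries were higher by 0.46 ± 0.20 on the log2 scale and Ocn-/- libraries by 0.48 ± 0.20, and without WT 3 these values were 0.33 and 0.35. In testes Cavin3 had 29.3 and 30.3 CPM in WT, 40.8, 28.1 and 37.7 CPM in Ocn+/- and 33.2, 31.2 and 19.0 CPM in Ocn-/-. The mutant libraries lay on both sides of WT there, and the log2 fold changes had opposite signs, 0.25 ± 0.22 in Ocn+/- and -0.10 ± 0.22 in Ocn-/-.

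Ehd2, the ATPase of the caveolar neck, overlapped between genotypes in testes and was lower in mutant forebrain in CPM but not apart in TPM. In testes Ehd2 had 118 and 124 CPM in WT, 131, 111 and 125 CPM in Ocn+/- and 122, 112 and 84.3 CPM in Ocn-/-. The third Ocn-/- library was the lowest, and the log2 fold changes were 0.02 ± 0.15 and -0.19 ± 0.14. In forebrain Ehd2 had 11.6, 11.3 and 11.6 CPM in WT, 10.1, 5.81 and 10.95 CPM in Ocn+/- and 8.79, 8.24 and 6.93 CPM in Ocn-/-. All 6 mutant libraries were under the lowest WT library, only just for the third Ocn+/- library, and the log2 fold change was -0.35 ± 0.21 and -0.52 ± 0.21. In TPM the groups overlapped, with 5.60 to 8.15 in WT, 3.91 to 7.59 in Ocn+/- and 4.84 to 6.47 in Ocn-/-. The lowest WT value is that of WT 3. WT 1 and WT 2 had 8.15 and 7.56 TPM, above every Ocn-/- library, while the highest Ocn+/- library still reached them.

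**Figure D3:**
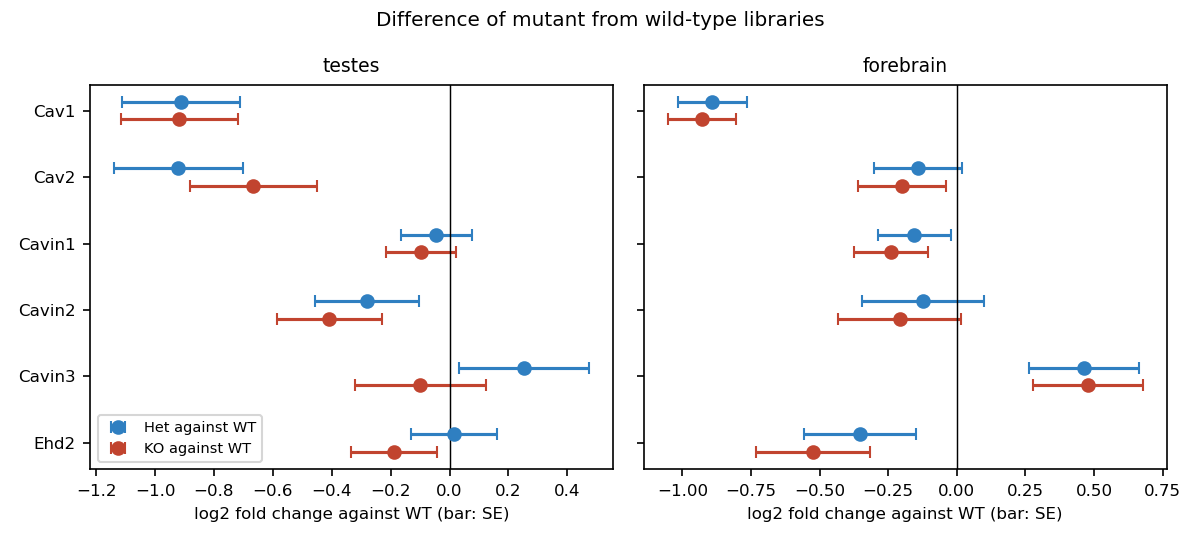
Log2 fold change of each member against WT (x axis) with its SE (bar), Ocn+/- in blue and Ocn-/- in red, testes on the left and forebrain on the right. Cav1 lies between -0.93 and -0.89 in all 4 comparisons, Cav2 is as low only in testes (-0.92 and -0.67 against -0.14 and -0.20 in forebrain), and Cavin3 in forebrain is at 0.46 and 0.48; the members were chosen with these contrasts known, and the values are descriptions.

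At an adjusted p under 0.05 over all genes, 2 of the 6 members (Cav1 and Cav2) were called in Ocn+/- testes, where 8.25% of all genes tested were called. In Ocn-/- testes 1 member (Cav1) was called, beside 5.64% of all genes. In forebrain 1 member (Cav1) was called in Ocn+/- beside 3.89% of all genes, and 1 (Cav1) in Ocn-/- beside 4.85%. The set was proposed with these contrasts known, and nothing is read from the counts, which also changed with single libraries. The median log2 fold change of the 6 members was -0.16 and -0.30 in Ocn+/- and Ocn-/- testes and -0.15 and -0.22 in forebrain, where the median over all genes tested was 0.01, -0.01, 0.01 and 0.01. In testes no member was called in Ocn+/- when WT 1, WT 2, Het 1 or Het 3 was left out, and none in Ocn-/- when WT 1, WT 2 or KO 1 was left out, while 2 were called there without KO 2. The log2 fold change of Cav1 in testes stayed between -1.09 and -0.71 with each of the 8 libraries left out.

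The ratio of Cav1 to Cavin1 mRNA was lower in the mutants of both organs. In TPM it was 1.13 and 1.19 in the WT testes, with a mean of 1.16 ± 0.04 (SD, n = 2), against 0.63 ± 0.06 in Ocn+/- and 0.66 ± 0.21 in Ocn-/- (n = 3 each). No mutant testis exceeded 0.86, so that Cav1 was above Cavin1 in WT and below it in every mutant library. In forebrain the ratio was 3.17 ± 0.46 in WT, 1.90 ± 0.05 in Ocn+/- and 1.98 ± 0.25 in Ocn-/- (n = 3 each), with a lowest WT value of 2.87 and a highest mutant value of 2.24. WT 3 had 3.70, and WT 1 and WT 2 had 2.87 and 2.94. Cav1 made up 40.0% ± 0.7 of the summed TPM of the 6 members in WT testes and 26.9% ± 3.1 and 28.0% ± 4.8 in Ocn+/- and Ocn-/- testes. In forebrain its share was 52.2% ± 4.4 in WT, 38.0% ± 0.7 in Ocn+/- and 38.6% ± 3.3 in Ocn-/-. The share was 57.3% in WT 3 and 49.3% and 49.9% in WT 1 and WT 2. Cav2 did not share this in forebrain, where it had 16.6 TPM in WT, 16.7 in Ocn+/- and 16.7 in Ocn-/- as group means beside 18.9, 18.9 and 18.7 for Cavin1. The WT means include the low WT 3, at 12.8 TPM for Cav2 and 15.3 TPM for Cavin1. WT 1 and WT 2 had 18.4 and 18.5 TPM for Cav2 and 21.0 and 20.6 TPM for Cavin1. The ratio of Cavin3 to Cavin1 in forebrain was 0.43 ± 0.10 in WT, 0.67 ± 0.04 in Ocn+/- and 0.72 ± 0.06 in Ocn-/-, while that of Cavin2 to Cavin1 was 0.21 in all 3 genotypes. For Cavin3 to Cavin1, WT 3 had 0.31, and WT 1 and WT 2 had 0.49 each, under the lowest mutant value of 0.62.

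Ocn+/- and Ocn-/- pups of Ocn-/- mothers were compared directly, and none of the 6 members passed the test in either organ. In testes 0% of the 16361 genes were called in this comparison, with 1881 at an unadjusted p under 0.05, and in forebrain 0.00622% of the 16076 genes, which is 1 gene. DESeq2 called 70 genes in testes and 5 in forebrain, and no member. The log2 difference of Cav1 (Ocn-/- minus Ocn+/-) was -0.01 ± 0.18 in testes and -0.04 ± 0.12 in forebrain. The members ranged from -0.35 ± 0.20 for Cavin3 (edgeR quasi-likelihood, adjusted p = 0.504) to 0.25 ± 0.20 for Cav2 (adjusted p = 0.651) in testes. In forebrain they ranged from -0.17 ± 0.20 for Ehd2 to 0.01 ± 0.19 for Cavin3, with an adjusted p of 0.999 for each of the 6. A difference of the size of these errors would not have been detectable with 3 libraries a group.

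Other genes tied to caveolae were taken as a list of 15 that are not members, of which 14 were tested in each organ (Cav3, the muscle caveolin, had at most 6 counts). In Ocn+/- testes 1 of the 14 was called, in Ocn-/- testes 2, in Ocn+/- forebrain 2 and in Ocn-/- forebrain 0, where 5 had an unadjusted p under 0.05. Over all genes tested 8.25%, 5.64%, 3.89% and 4.85% were called in the same order, and nothing is read from the counts. This list and the later ones were chosen with earlier results of these data known. Their calls and p-values against WT are therefore descriptions, as for the members. Mfsd2a, the lipid transporter that limits caveolar transport at the blood-brain barrier, rose in testes of both mutants. It had 11.01 and 7.82 CPM in WT, 17.1, 16.03 and 21.04 CPM in Ocn+/- and 14.7, 17.6 and 24.1 CPM in Ocn-/-. All mutant testes were above the WT testes, with a log2 fold change of 0.94 ± 0.25 (edgeR quasi-likelihood, adjusted p = 0.034) and 1.00 ± 0.25 (adjusted p = 0.030). Both calls were lost when the replicate number was added to the fit. In forebrain Mfsd2a was at 0.01 and 0.03 (adjusted p = 0.974 and 0.924). Plvap, which forms the diaphragm of endothelial caveolae and fenestrae, fell in Ocn-/- testes by 1.23 on the log2 scale (SE 0.25, adjusted p = 0.011). Plvap had 12.1 and 10.98 CPM in WT, 9.03, 7.95 and 9.49 CPM in Ocn+/- and 5.45, 4.97 and 4.30 CPM in Ocn-/-, so the 3 genotypes did not overlap, but neither Ocn+/- against WT (-0.38, adjusted p = 0.346) nor Ocn-/- against Ocn+/- (-0.84, adjusted p = 0.256) passed. In forebrain Plvap was at 0.28 and 0.31 in the mutants (adjusted p = 0.511 and 0.433). These testis calls were lost when either WT library was left out, and the Mfsd2a call of the Ocn+/- pups also without Het 1 or Het 3 and that of the Ocn-/- pups without KO 3.

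In Ocn+/- forebrain the membrane-bending protein gene Pacsin1 rose by 0.66 ± 0.14 (adjusted p = 0.011) and Ehd3, a relative of Ehd2 that acts on endosomes, by 0.43 ± 0.10 (adjusted p = 0.026), both in edgeR's quasi-likelihood test. Pacsin1 had 29.4, 25.6 and 20.6 CPM in WT and 43.5, 41.3 and 36.2 CPM in Ocn+/-, and Ehd3 had 40.4, 37.9 and 38.2 CPM in WT and 53.0, 47.4 and 57.3 CPM in Ocn+/-. The groups did not overlap for either gene. Without WT 3 the differences were 0.55 for Pacsin1 (adjusted p = 0.067) and 0.43 for Ehd3 (adjusted p = 0.082), which did not pass, and the Ehd3 call was also lost without WT 2, Het 1 or Het 3. In Ocn-/- forebrain Pacsin1 differed from WT by 0.45 ± 0.14 (adjusted p = 0.059) and Ehd3 by 0.30 ± 0.11 (adjusted p = 0.0997), which did not pass.

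Clathrin-coated pits are the other main route of uptake from the membrane, and 18 of their genes were followed for comparison. In testes 1 of the 18 was called in Ocn+/- and 0 in Ocn-/-, where 4 had an unadjusted p under 0.05, and in forebrain 2 were called in each mutant. The shares called over all genes were 8.25% and 5.64% in testes and 3.89% and 4.85% in forebrain, and nothing is read from the counts. Picalm, a clathrin assembly protein, fell in Ocn+/- testes by 0.46 on the log2 scale (SE 0.13, edgeR adjusted p = 0.042) and in forebrain by 0.28 in Ocn+/- (adjusted p = 0.044) and 0.29 in Ocn-/- (adjusted p = 0.036). Fcho2, which starts the clathrin pit, fell in forebrain by 0.52 in both mutants (adjusted p = 0.018 and 0.017). Fcho2 had 55.0, 53.0 and 65.3 CPM in WT forebrain and 33.7 to 43.9 CPM in the 6 mutant libraries. None of these forebrain calls was made without WT 3, where Fcho2 differed from WT by -0.43 in both mutants (adjusted p = 0.101 and 0.098) and Picalm by -0.21 and -0.22 (adjusted p = 0.201 and 0.174), and none with library size alone as the scaling. The Picalm call in testes was lost without WT 1, WT 2, KO 1, Het 1 or Het 3, and its forebrain calls also without WT 2, without any library of the mutant compared, and, for Ocn+/-, without KO 2. The median of the 18 genes was between -0.05 and 0.03 in the 4 comparisons with WT.

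Endothelium is rich in caveolae, and its summed markers were lower in every mutant testis, as Cav1 was. Of 12 endothelial markers, 3 fell in Ocn+/- testes (Pecam1, Kdr and Emcn) and 6 in Ocn-/- testes (those and Cdh5, Tek and Egfl7), with none called higher. Over all genes 8.25% and 5.64% were called in testes and 3.89% and 4.85% in forebrain. The markers were chosen with earlier results of these data known, so their calls are descriptions and no separate evidence about Cav1. Cldn5, a tight junction protein, ran the other way in both, at 0.53 (adjusted p = 0.165) and 0.27 (adjusted p = 0.535), and did not pass. In all, 10 and 11 of the 12 had negative values, with medians of -0.36 and -0.68. Pecam1, an adhesion molecule of endothelial junctions, fell by 0.93 in Ocn+/- (edgeR adjusted p = 0.0025) and 1.13 in Ocn-/- (adjusted p = 0.00051) on the log2 scale, as much as Cav1 or more. In Ocn-/- testes Pecam1 and Kdr were called with each of the 8 libraries left out and Cdh5 with only 2 of the 8. In forebrain 2 of the 12 fell in Ocn+/- (Pecam1 and Kdr) and 1 in Ocn-/- (Kdr), and none of these was called without WT 3, where Kdr differed from WT by -0.42 and -0.43 (adjusted p = 0.163 and 0.136). The summed CPM of the 12 markers was 683 to 687 in WT testes, 452 to 523 in Ocn+/- and 410 to 451 in Ocn-/-, whereas in forebrain it was 222 to 253 in WT, 193 to 240 in Ocn+/- and 186 to 263 in Ocn-/-. The sums separated WT from mutants in testes and overlapped in forebrain. In bulk tissue, fewer cells of a type and less RNA per cell cannot be told apart.

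Set against that sum, Cav1 was 46.0% and 50.8% of the endothelial marker CPM in the WT testes, 33.3% to 39.6% in Ocn+/- and 29.8% to 47.8% in Ocn-/-, where the ranges of WT and Ocn-/- overlap. In forebrain Cav1 was 28.2% to 38.2% of the sum in WT, 18.1% to 20.4% in Ocn+/- and 16.05% to 20.97% in Ocn-/-, without overlap. With libraries scaled to the endothelial markers in place of TMM, the log2 fold change of Cav1 was -0.45 and -0.26 in Ocn+/- and Ocn-/- testes, and -0.74 and -0.77 in forebrain. That scaling moves the median of all genes to 0.48, 0.66, 0.17 and 0.17 in the same order. On the same scale Cav2 was at -0.45 and -0.01 in testes, and Cavin1 was at 0.42 and 0.58.

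**Figure D4:**
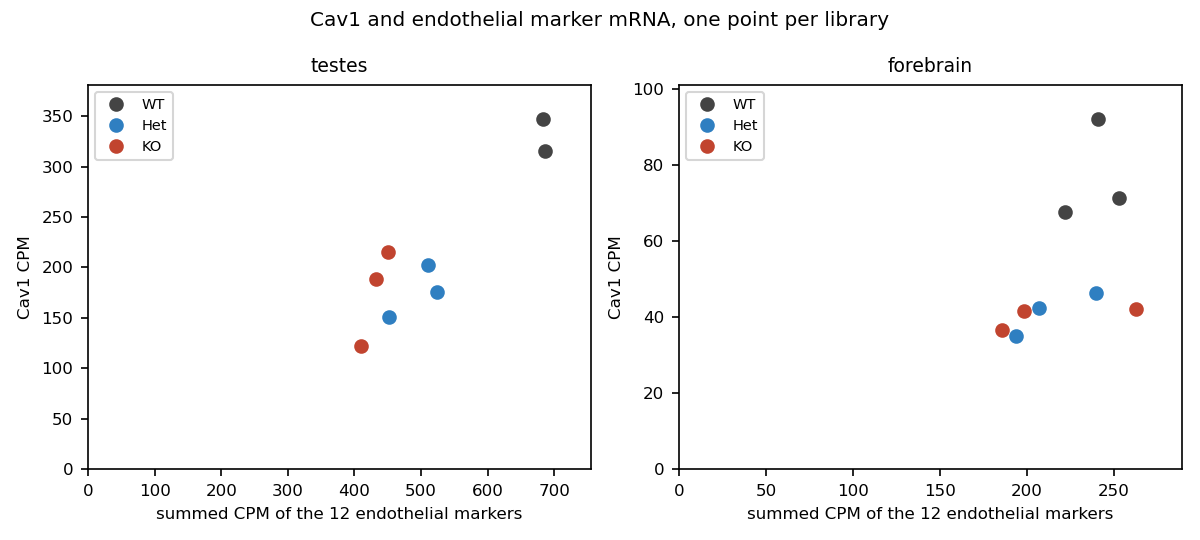
Cav1 CPM (y axis) against the summed CPM of 12 endothelial markers (x axis) in each library, testes on the left and forebrain on the right, with both axes starting at 0. In testes both measures are lower in all 6 mutant libraries (sums of 523 or less against 683 or more), whereas in forebrain the sums overlap (186 to 263 against 222 to 253) and Cav1 does not.

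Among other markers, 1 of 8 pericyte genes fell in Ocn+/- testes (Rgs5) and 4 in Ocn-/- testes (Rgs5, Pdgfrb, Abcc9 and Notch3), and Abcc9 fell in forebrain of both mutants, a call lost without WT 3. Beside each count in this paragraph stand the shares of all genes called, 8.25% and 5.64% in testes and 3.89% and 4.85% in forebrain. Pericyte sums were 501 to 602 CPM in WT testes, 419 to 448 in Ocn+/- and 325 to 396 in Ocn-/-, and overlapped in forebrain for Ocn+/- but not for Ocn-/- (281 to 317 in WT, 233 to 302 and 234 to 279 in the mutants). None of 7 smooth muscle and peritubular genes was called, with 2 at an unadjusted p under 0.05 in each mutant testis group. In testes 1 of 5 fibroblast genes (Pdgfra) fell in Ocn+/- and none was called in Ocn-/-, and the median of the 5 was -0.41 and -0.32. The collagen genes Col1a1 and Col1a2, the most abundant of the 5, were at 0.44 and 0.26 in Ocn+/- (adjusted p = 0.324 and 0.320) and at -0.25 and -0.19 in Ocn-/-, without passing. Of 6 adipocyte genes 3 were tested in testes and Fabp4, which capillary endothelium also makes, fell in both mutants by 1.65 and 2.06 on the log2 scale (adjusted p = 0.022 and 0.0088). Plin1, a lipid droplet protein and the adipocyte gene with the most counts in testes (80 to 193), was at 0.61 and 0.73 (adjusted p = 0.106 and 0.073), which did not pass, while Lep was at 0 in all 17 libraries and Cidec and Adipoq had at most 2 and 4 counts. The Leydig cell sum was 1873 to 1985 CPM in WT testes and 910 to 1472 in the mutants. Of its 7 genes 5 had negative values in each mutant group. Hsd3b1 and Nr5a1 were at 0.05 and 0.11 in Ocn+/- and at 0.32 and 0.20 in Ocn-/-. Star and Cyp17a1, with 444 to 3998 and 289 to 3746 counts in testis libraries, did not pass in either group. Of 7 Leydig genes 1 was called lower in both mutants (Lhcgr, the luteinizing hormone receptor), and of 5 Sertoli genes 1 rose, Sox9, a transcription factor of Sertoli cells, by 0.92 and 1.097 (adjusted p = 0.0031 and 0.00078), the first call being lost without WT 1. All 5 erythroid genes had negative values in both mutant testis groups (medians -1.03 and -1.41), and none passed the test. In Ocn+/- forebrain 3 of the 5 fell, the globin genes Hba-a1, Hba-a2 and Hbb-bs, whose reads can be split between near copies, by 0.84, 0.97 and 0.46, and without WT 3 the first and second were still called. In Ocn-/- forebrain none of the 5 was called, and their median was -0.07. In forebrain, genes marking the olfactory bulb summed to 30.2 to 35.3 CPM in WT, 101 to 130 in Ocn+/- and 24.4 to 83.4 in Ocn-/-, and Drd1, a dopamine receptor of the striatum, rose in Ocn-/-, also without WT 3. Of 5 choroid plexus genes Aqp1 was called lower in Ocn-/- forebrain, by 0.85 (edgeR adjusted p = 0.014). There 4 of the 5 had negative values and the median was -0.52, against 0.01 in Ocn+/-. Aqp1 was also called lower in mutant testes, by 0.77 and 0.92 (adjusted p = 0.040 and 0.023). Of 5 neuronal genes Dcx was called lower in mutant forebrain, by 0.39 and 0.34 (adjusted p = 0.015 and 0.028). The part of these markers in the Cav1 values was not tested.

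The genes whose profile over the libraries was nearest to that of Cav1 were different in each organ. Nearness was the root mean square distance of centred log2 CPM, over 8 libraries and 5193 genes in testes and over 9 libraries and 2678 genes in forebrain. In testes Itga1, the collagen-binding integrin alpha 1, was nearest (distance 0.08), followed by Efemp1, Plekha2, Layn and Tek, the angiopoietin receptor of endothelial cells (0.11). In forebrain Xpo1, the nuclear export receptor, was nearest (0.11), followed by Scml2, Cdkn1c, Enpep and Map2k6 (0.12). Both lists are descriptions, since the libraries share their WT controls with the contrasts above. Of the other members, Cav2 was nearest in testes (0.23) and Cavin3 farthest (0.52), and in forebrain Ehd2 was nearest (0.30) and Cavin3 again farthest (0.72).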

How the data were processed

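RNA of 17 libraries from male newborn pups was sequenced by the authors after poly-T selection. Per the submitters' processing notes, reads were trimmed with Trim Galore 0.6.6, aligned to GRCm39 with STAR 2.7.8a and counted per gene with RSEM 1.3.3. The authors deposited one table of RSEM expected counts without normalization, in which 9625 genes hold values that are not whole. The GENCODE release and the strandedness are not given in the sources used here. Names came from GENCODE vM39, which matched 54749 of 55359 identifiers. The unmatched genes held at most 0.102% of a library.

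Counts were rounded and tested in R 4.3.3 with edgeR 4.0.16 (TMM, filterByExpr, robust quasi-likelihood, Benjamini-Hochberg over all genes tested, threshold 0.05), with all genotypes of an organ in one fit, and with all 17 libraries jointly for testes against forebrain. CPM used TMM scaling within an organ, and TPM used the union of exons of each gene. The genes nearest to Cav1 were the 5 of lowest distance (prior count 2) among tested genes of mean at least 5 CPM with at least 0.5 times the SD of Cav1. DESeq2 1.42.0 and other settings were alternatives. On data simulated for each comparison with 200 changed genes, 64% and 62% of 2-fold changes were found in Ocn+/- and Ocn-/- testes and 81% and 80% in forebrain, with 9 to 17 false calls. Named genes were all members, called genes of the lists, some list genes that were not called and the nearest genes. The members and gene lists were chosen with earlier results of these data known.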

Additional observations from a re-analysis of the deposited data

How the results depend on the processing

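Of 1530 values recomputed under other settings, 1328 kept their direction and call or moved by less than their spread, 48 moved, 2 reversed and 152 kept their direction but lost their call. The last are single genes outside the 6 members, whose alternatives were chosen after their calls were seen. Members were recomputed one by one as values with no call, and the counts of them called, which do change, are given below. The reversed values are the testes against forebrain difference of Cav2, at 0.17 with library size alone and 2.1e-05 with upper quartile scaling. With scaling to the endothelial markers, the median log2 fold change of the members was 0.31 and 0.36 in Ocn+/- and Ocn-/- testes and 0.010 and -0.090 in forebrain, where the median of all genes moved by construction. The sign of 3 of these 4 medians thus also turned, which counts among the moved values since a median has no call. Without a filter on low counts, 2 members were called in Ocn-/- testes and 3 caveola-related genes in Ocn-/- forebrain, where DESeq2 called 1. Leaving out single libraries gave 0 to 2 members called in Ocn+/- and in Ocn-/- testes. It gave 0 to 1 and 0 to 2 caveola-related genes called in Ocn+/- and Ocn-/- testes, and 0 to 2 in each forebrain contrast. The median of the members in Ocn-/- forebrain ranged from -0.40 (without KO 3) to -0.15. Without a WT testis the lone WT library is assumed to vary like the other groups.

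Same-numbered libraries did not deviate together (r from -0.09 to 0.09 in testes and -0.04 to 0.15 in forebrain), so the numbers were not taken as pairs. With the number as a replicate block, 0 caveola-related genes were called in Ocn+/- testes, 1 in Ocn-/- testes and 1 in Ocn-/- forebrain, and no count of called members changed. The Mfsd2a calls in testes were lost under it. Forebrain counts of 27 to 163 per library limit Cavin2, Cavin3 and Ehd2.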
